A study of Ovis aries with 6 samples.

Results

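AP-1 and other immediate early factors are taken here as 10 genes, chosen by symbol from the rows of the raw count table: the FOS family (FOS, FOSB, FOSL1, FOSL2), the JUN family (JUN, JUNB, JUND), ATF3, EGR1 and IER3. All 10 were among the 18865 rows of the table, and 9 passed the filter on low counts that left 14326 genes for testing. FOSB did not pass. The cells were valve endothelial cells (VECs) of the sheep mitral valve, grown in culture. They had spent 24 h with plasma drawn from sheep after a myocardial infarction (post-MI plasma) in 3 libraries, and with naive sheep plasma in the other 3 libraries. The age, breed and number of plasma or cell donors, and the time between infarction and plasma draw, were not stated in the labels. The labels do not tell separate cultures from repeat libraries of 1 culture, so each p-value reflects only how far these libraries vary, and that variation may be technical. No other allele or agent is named in the labels of these 6 libraries.

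AP-1 is a dimer of basic leucine zipper proteins. JUN proteins pair with each other or with FOS proteins, FOS proteins need a JUN partner, and the composition of the dimer sets how strongly its target genes are driven. FOS, JUN and EGR1 are textbook immediate early genes: growth factors, cytokines and mechanical stress induce them within minutes through MAP kinases and serum response factor, and their transcripts decay quickly, while FOSL1, FOSL2 and JUND are typically more lasting members. In endothelium these factors are known for their part in responses to injury, flow and inflammatory stimuli. The libraries hold a single time, 24 h, so they give the level after a day with plasma and not the early peak.

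With post-MI plasma the log2 fold change was below 0 for 6 of the 9 tested genes, as for 52.1% of all genes, and above 0 for 3, and 0 of the 9 passed edgeR's quasi-likelihood test, whose calls made up 0% of all genes tested. IER3, JUNB and FOSL1 had the largest negative estimates, and FOS, FOSL2 and JUND lay near 0. The median log2 fold change of the 9 was -0.60, against -0.01 over all 14326 genes. With naive replicate 1 or post-MI replicate 2 left out, FOSB also passed the filter and the median of the 10 genes was -0.30, and limma-voom gave -0.35 for the 9. CPM (the count of a gene scaled by the TMM-adjusted size of its library) overlapped between the groups for all 10 genes, where 16.1% of all genes tested did not overlap in either direction. At an unadjusted p under 0.05 edgeR gave 0 of the 9 genes and 8.68% of all genes tested. DESeq2 gave an unadjusted p under 0.05 for FOSL1 and IER3, both lower with post-MI plasma, where 3.83% of all genes had one in that direction. limma-voom did so for FOSL1, also lower, where 3.39% of all genes had one in that direction. DESeq2 gave an adjusted p of 0.445 for FOSL1 and 0.255 for IER3, and limma-voom 0.59 for FOSL1, so that all 3 tools called 0 of these genes.

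**Figure D1:**
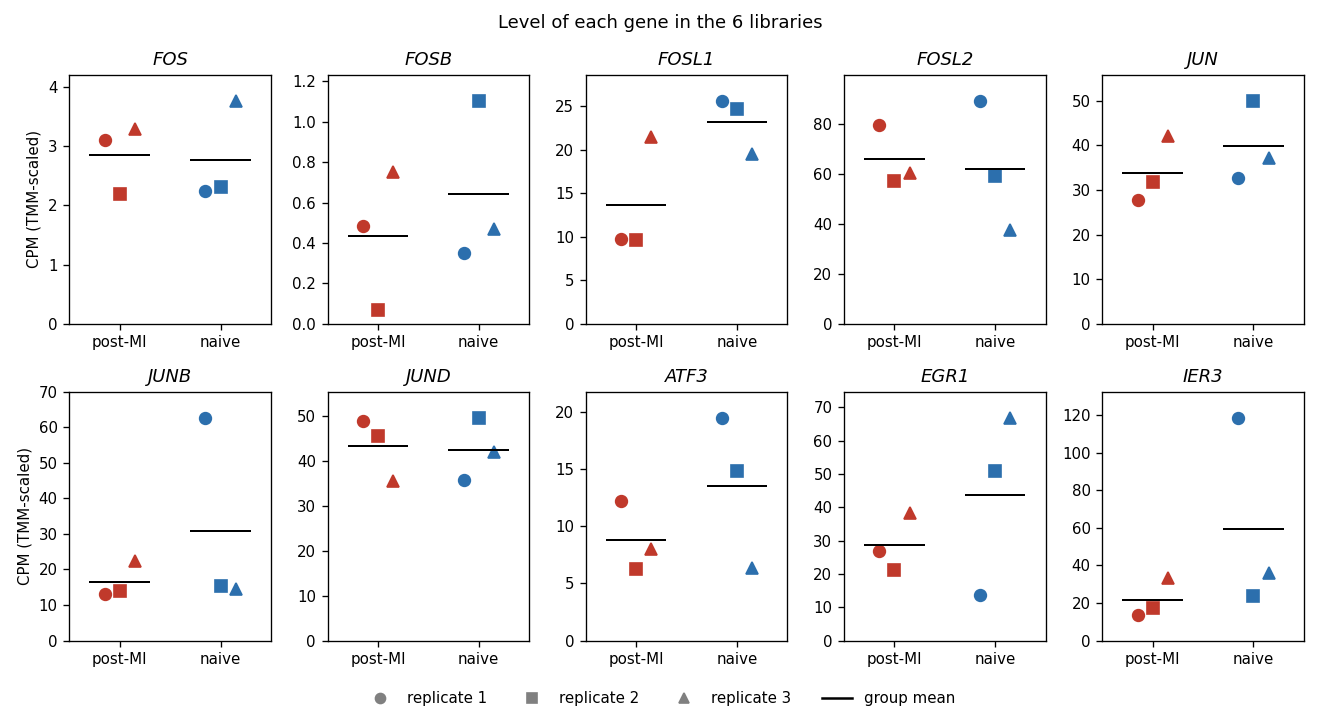
Level of each of the 10 genes (vertical axis, TMM-scaled CPM, starting at 0) in 3 post-MI (red, left) and 3 naive (blue, right) libraries, with the symbol giving the replicate number and the line the group mean. JUNB and IER3 are highest in naive replicate 1, at 62.6 and 118 CPM, EGR1 is lowest there at 13.6 CPM, and the groups overlap in every panel.

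Library totals were 14858472 to 18747848 counts with post-MI plasma and 17446474 to 20672794 with naive plasma. On the first principal component of the 500 most variable genes, which held 59.2% of their variance, the score of naive replicate 1 was -52.3, while scores elsewhere were -0.50 to 18.5. Endothelial markers summed to 4520 to 6350 CPM with post-MI and 4690 to 4950 CPM with naive plasma over 15 genes, all detected. Their log2 fold changes were above 0 for 11 of the 15, with a median of 0.36, and edgeR called 0. At an unadjusted p under 0.05 edgeR gave 4 higher and 0 lower, 26.7% of the list, where 4.61% of all genes were higher. The groups did not overlap for 3 of the 15, all higher, which is 20% against 16.1% of all genes in either direction. DESeq2 called ROBO4, an endothelial guidance receptor, where it called 1.51% of the genes it tested. ROBO4 was at 21.5 to 56.1 CPM with post-MI and 11.5 to 20.3 CPM with naive plasma. The leukocyte list had 11 of its 12 genes in the table. It summed to 35.9 to 42.7 CPM with post-MI and 36.4 to 60.4 CPM with naive plasma. Most of this sum came from CD14, at 22.6 to 32.4 CPM with post-MI and 25.9 to 41.4 CPM with naive plasma, and from CD68. CD68 was at 6.87 to 10.5 CPM with post-MI and 8.45 to 13.0 CPM with naive plasma. The defining gene of the list, PTPRC, was at 0.643 to 1.33 CPM with post-MI and 0.141 to 0.347 CPM with naive plasma. These values rest on 12 to 23 counts with post-MI and 3 to 6 counts with naive plasma. PTPRC had a log2 fold change of 2.01 (adjusted p = 0.443 in edgeR). The other 3 of the 4 tested leukocyte genes were below 0, and the median of the 4 was -0.22 (0.41 without naive replicate 1). Fibroblast and valve interstitial markers (10 genes) summed to 13700 to 18400 CPM with post-MI plasma and 8090 to 20000 CPM with naive plasma. Smooth muscle and pericyte markers (8 of 9 genes in the table) summed to 4560 to 6240 CPM with post-MI and 908 to 5040 CPM with naive plasma, and naive replicate 1 was the lowest library for both of these lists. The log2 fold change was above 0 for all 6 tested smooth muscle and pericyte markers, with a median of 0.76 (0.496 without naive replicate 1 and 1.47 without naive replicate 2). It was below 0 for 7 of 10 fibroblast and valve interstitial markers, with a median of -0.23 (0.12 without naive replicate 3). Platelet and red cell markers (4 of 9 genes in the table) summed to 33.5 to 53.2 CPM with post-MI and 30.3 to 59.6 CPM with naive plasma. This sum came from GP1BA and ITGA2B, with PPBP and ALAS2 listed at 0 in every library. GP1BA was at 30.1 to 47.3 CPM with post-MI and 24.97 to 54.6 CPM with naive plasma. ITGA2B was at 3.46 to 5.896 CPM with post-MI and 4.98 to 5.36 CPM with naive plasma. Naive replicate 1 also stands apart in several of the levels given below, and the part of these markers in them was not tested. In bulk RNA, a shift in the share of a cell type and a shift in RNA per cell cannot be told apart.

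Among the FOS family, FOSL1 was lower in post-MI replicates 1 and 2 than in any naive library, and post-MI replicate 3 lay within the naive range. FOSL1 encodes Fra-1, an AP-1 partner known for its role in migration and matrix remodelling. It was at 9.70, 9.56 and 21.5 CPM in post-MI replicates 1, 2 and 3, against 25.5, 24.6 and 19.5 CPM in naive replicates 1, 2 and 3. These values rest on 140 to 372 counts with post-MI and 414 to 510 counts with naive plasma. FOSL1 averaged 13.6 ± 6.84 CPM with post-MI and 23.2 ± 3.27 CPM with naive plasma (SD, n = 3 per group), which gave a fitted log2 difference of -0.77 ± 0.33 (SE, 95% interval -1.56 to 0.02, adjusted p = 0.566 in edgeR). Without post-MI replicate 3 the estimate for FOSL1 was -1.27 ± 0.20 (SE, adjusted p = 0.309 in edgeR), with an unadjusted p under 0.05 as for 4.57% of genes in the same direction. The groups then did not overlap for FOSL1, JUN, JUNB and IER3, all lower with post-MI plasma. These made up 44.4% of the 9 tested genes, against 16.1% of all genes in that direction. Post-MI replicate 3 held the highest post-MI level of each of them. Leaving it out could therefore only narrow their overlap, and no conclusion is drawn from this share.

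FOSL2, which encodes Fra-2 and supplied most counts of the family, had nearly the same mean level with either plasma and a wider range among the naive libraries. FOSL2 was at 79.7, 57.3 and 60.6 CPM in post-MI replicates 1 to 3 and at 89.1, 59.2 and 37.6 CPM in naive replicates 1 to 3. The highest and the lowest library were both naive. Its log2 fold change was 0.09 ± 0.31 (SE, 95% interval -0.64 to 0.82, adjusted p = 0.943 in edgeR), and it was 0.46 without naive replicate 1 and -0.17 without naive replicate 3.

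FOS, the founding member and the classic early marker of stimulation, was low at this time. It was at 3.11, 2.19 and 3.29 CPM in post-MI replicates 1 to 3 and at 2.25, 2.32 and 3.76 CPM in naive replicates 1 to 3, from 32 to 58 and 40 to 80 counts. The ranges overlapped almost fully, and the log2 fold change of FOS was 0.04 ± 0.32 (SE, 95% interval -0.71 to 0.80, adjusted p = 0.973 in edgeR). Differences of either sign inside that interval are not excluded at this depth and spread, and the interval is not a limit of detection. FOSB, its close relative, had 9, 1 and 13 counts in post-MI replicates 1 to 3 and 7, 19 and 10 counts in naive replicates 1 to 3. The single count in post-MI replicate 2 is below the floor of 3 counts per library, so no order can be read for FOSB.

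Within each library, FOSL1 took a varying share of the counts assigned to the 4 FOS family genes, a measure computed after the values were seen. The share of FOSL1 was 10.4% (95% Wilson interval 9.08 to 11.96) in post-MI replicate 1, 13.8% (11.8 to 16.1) in post-MI replicate 2 and 24.95% (22.8 to 27.2) in post-MI replicate 3. With naive plasma the share of FOSL1 was 21.8% (20.2 to 23.5), 28.2% (25.99 to 30.5) and 31.8% (29.3 to 34.3) in replicates 1, 2 and 3. Post-MI replicate 3 lay above naive replicate 1, so the groups overlapped. The intervals cover counting error within a library only, and not the variation between libraries. Reads lacked molecular identifiers, so duplicate reads may make the intervals too narrow. Counts are not corrected for transcript length, so shares can be compared between libraries for 1 gene but not between genes.

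**Figure D2:**
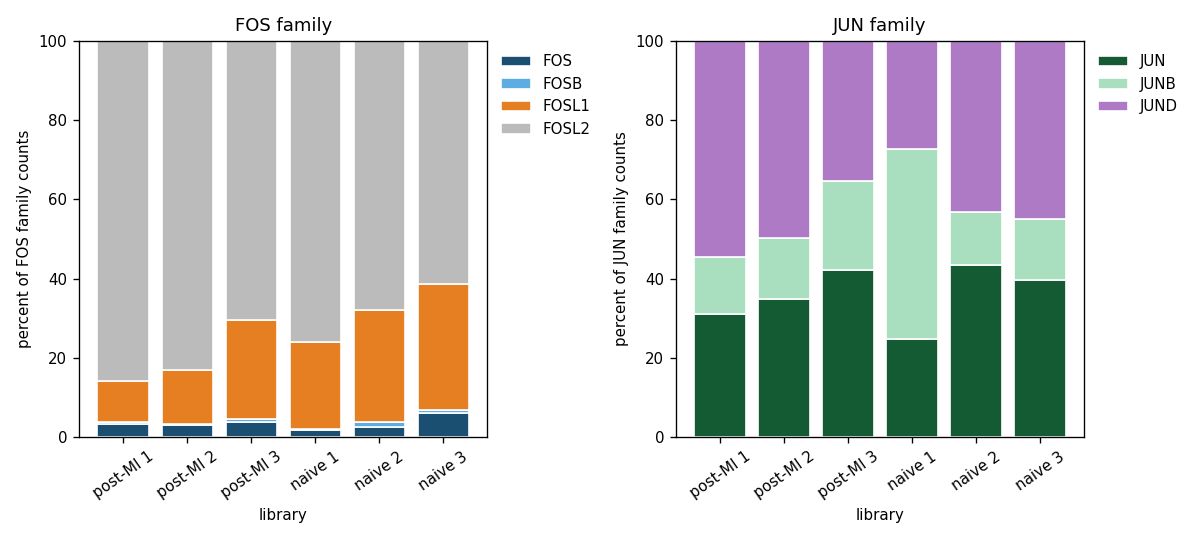
Stacked bars of the percent of FOS family counts (left, 4 genes) and JUN family counts (right, 3 genes) per library, post-MI libraries first. FOSL1 takes 10.4%, 13.8% and 24.95% in post-MI replicates 1, 2 and 3 and 21.8% to 31.8% in the naive libraries, so the groups overlap. JUNB takes 47.8% in naive replicate 1 and 13.5% to 22.4% elsewhere.

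The JUN family supplies the partners that FOS proteins require. JUN itself was at 27.8, 31.7 and 42.1 CPM in post-MI replicates 1 to 3, against 32.6, 49.9 and 37.1 CPM in naive replicates 1 to 3. It averaged 33.9 ± 7.41 CPM with post-MI plasma and 39.9 ± 8.95 CPM with naive plasma (SD, n = 3 per group). The libraries of both groups were interleaved, and the log2 fold change of JUN was -0.23 ± 0.22 (SE, 95% interval -0.75 to 0.29, adjusted p = 0.746 in edgeR). With 1 library left out JUN ranged from -0.42 (post-MI replicate 3) to -0.04 (naive replicate 2), with -0.35 for naive replicate 1 and -0.11 for post-MI replicate 1.

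JUNB, a member induced with FOS but a weaker activator of many AP-1 sites than JUN, had 1 library far above the rest. JUNB was at 13.1, 14.0 and 22.4 CPM in post-MI replicates 1 to 3 and at 62.6, 15.5 and 14.4 CPM in naive replicates 1 to 3. Naive replicate 1 stood 4.19 times above the mean of the other naive libraries, which fell within the post-MI range. The log2 fold change of JUNB was -0.90 ± 0.59 (SE, 95% interval -2.28 to 0.48, adjusted p = 0.64 in edgeR), and without naive replicate 1 it was 0.15 ± 0.25 (SE). The share of JUNB in the counts of the 3 JUN genes was 14.6% (95% Wilson interval 13.0 to 16.3), 15.4% (13.5 to 17.4) and 22.4% (20.5 to 24.4) in post-MI replicates 1 to 3. In naive replicates 1 to 3 it was 47.8% (45.9 to 49.8), 13.5% (12.04 to 15.1) and 15.4% (13.9 to 17.1).

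JUND, the member usually present in unstimulated cells, was the steadiest of the tested genes. JUND was at 48.9, 45.5 and 35.5 CPM in post-MI replicates 1 to 3 and at 35.6, 49.4 and 42.0 CPM in naive replicates 1 to 3. Its log2 fold change was 0.03 ± 0.18 (SE, 95% interval -0.40 to 0.46, adjusted p = 0.964 in edgeR). The pooled within-group SD of log2 CPM was 0.24 for JUND, and 44.9% of tested genes had a smaller one.

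ATF3, a stress-induced leucine zipper factor that pairs with JUN proteins and often represses, was at 12.2, 6.22 and 7.97 CPM in post-MI replicates 1 to 3. In naive replicates 1 to 3 ATF3 was at 19.4, 14.8 and 6.34 CPM. Naive replicate 3 lay among the post-MI libraries and the other naive libraries above them. The log2 fold change of ATF3 was -0.62 ± 0.43 (SE, 95% interval -1.63 to 0.40, adjusted p = 0.661 in edgeR). Without naive replicate 3 the groups did not overlap (as for 14.8% of genes in that direction) and it was -0.96 ± 0.31 (SE, adjusted p = 0.468 in edgeR). Its unadjusted p was then under 0.05, as for 5.36% of genes in that direction. Without naive replicate 1 it was -0.24, and without post-MI replicate 1 it was -0.93.

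EGR1, a zinc finger factor induced through serum response factor, had the lowest level of all 6 libraries in naive replicate 1, where JUNB and IER3 had their highest. EGR1 was at 27.0, 21.1 and 38.3 CPM in post-MI replicates 1 to 3, against 13.6, 50.9 and 66.7 CPM in naive replicates 1 to 3. It averaged 28.8 ± 8.76 CPM with post-MI plasma and 43.7 ± 27.3 CPM with naive plasma (SD, n = 3 per group), which gave a fitted log2 difference of -0.60 ± 0.53 (SE, 95% interval -1.85 to 0.65, adjusted p = 0.729 in edgeR). Naive replicate 1 was at 0.231 times the mean of the other naive libraries. Without it, EGR1 was lower with post-MI plasma in every library, as were 12.8% of genes, and gave -1.02 ± 0.25 (SE, adjusted p = 0.344 in edgeR). Its unadjusted p was then under 0.05, as for 3.36% of genes in that direction. Without naive replicate 3 it gave -0.16.

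IER3, an early response gene of stress and NF-kB signalling that modulates cell survival, had the largest estimate of the 9 tested genes. IER3 was at 13.8, 17.4 and 33.4 CPM in post-MI replicates 1 to 3 and at 118, 23.9 and 36.1 CPM in naive replicates 1 to 3. Naive replicate 1 stood apart, and post-MI replicate 3 lay between the other naive libraries. IER3 averaged 21.5 ± 10.4 CPM with post-MI plasma and 59.5 ± 51.4 CPM with naive plasma (SD, n = 3 per group), which gave a fitted log2 difference of -1.47 ± 0.63 (SE, 95% interval -2.95 to 0.01, adjusted p = 0.566 in edgeR). Without naive replicate 1 it was -0.48 ± 0.38 (SE, adjusted p = 0.762 in edgeR), and without post-MI replicate 3 it was -1.93 ± 0.71 (SE, adjusted p = 0.484 in edgeR). The unadjusted p of IER3 was under 0.05 without post-MI replicate 3 or naive replicate 3, as for 4.57% and 5.36% of genes in that direction. It was also under 0.05 without naive replicate 2, as for 11.3% of genes in either direction. There the estimate was -1.84 and the groups did not overlap, as for 15.1% of genes in that direction.

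**Figure D3:**
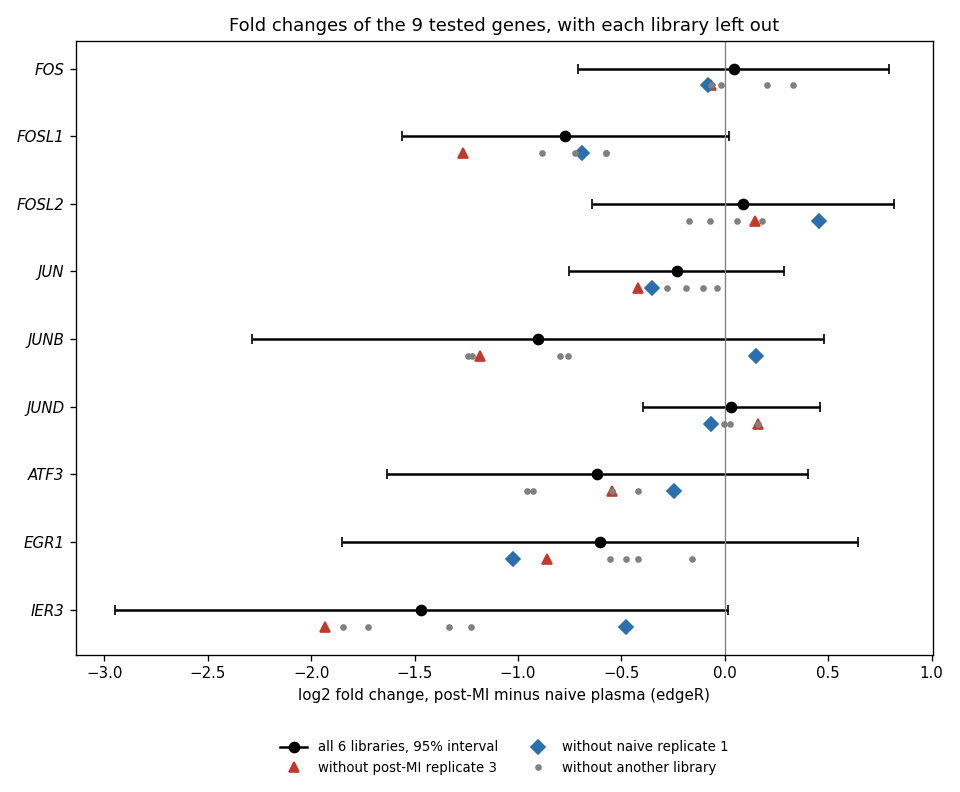
Log2 fold change, post-MI minus naive plasma (horizontal axis), of the 9 tested genes with its 95% interval over all 6 libraries (black), and below each the estimates with 1 library left out. Every black interval includes 0, JUNB moves from -0.90 to 0.15 without naive replicate 1 (blue diamond), and FOSL1 moves to -1.27 without post-MI replicate 3 (red triangle).

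The 9 tested genes did not follow a single pattern across libraries. Naive replicate 1 was the highest of the 6 libraries for 5 of the 9 tested genes (FOSL1, FOSL2, JUNB, ATF3 and IER3) and the lowest for EGR1. For all genes tested, that library was the highest for 28.8% and the lowest for 29.2%. Among the post-MI libraries, replicate 3 was the highest for 6 of the 9 (FOS, FOSL1, JUN, JUNB, EGR1 and IER3), where it was the highest of its group for 38.7% of all tested genes. No test was made of these counts.

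**Figure D4:**
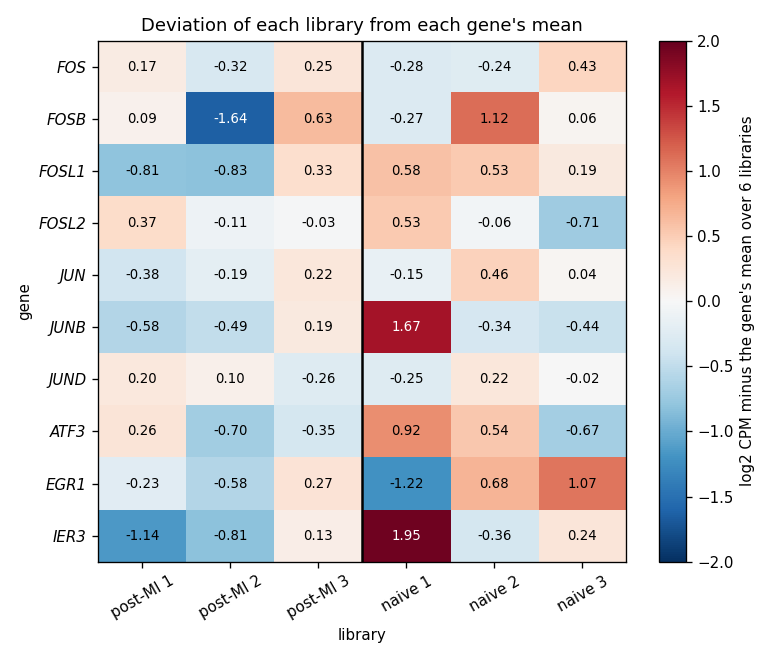
Deviation of log2 CPM from each gene's mean over the 6 libraries (colour and printed value), with the 10 genes down the page and the 3 post-MI libraries left of the 3 naive libraries. Naive replicate 1 is at 1.67 for JUNB, 1.95 for IER3 and -1.22 for EGR1, while JUND stays within 0.26 of its mean.

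The spread within groups was wide for most of these genes. The pooled within-group SD of log2 CPM was 0.97 for IER3, 0.92 for EGR1, 0.89 for JUNB and 0.68 for ATF3, against a median of 0.26 over all genes tested. Of all tested genes, 96.1% had a smaller SD than IER3, 95.6% than EGR1 and 95.2% than JUNB. The SD was larger among naive than among post-MI libraries for 7 of the 9 genes, and for 66.5% of all genes tested. FOSL1 and JUND were the exceptions, with an SD for FOSL1 of 0.66 in the post-MI and 0.21 in the naive libraries and near-equal values for JUND.

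Profiles were compared by the root mean square difference of log2 CPM over the 6 libraries after centring each gene on its mean. Within the group of 9, the difference was smallest for JUN and JUND (0.35), followed by FOS and JUND (0.38) and by JUNB and IER3 (0.40). It is small for any genes that vary little. The root mean square deviation from their own mean was 0.28 for JUN, 0.20 for JUND and 0.29 for FOS. It was 0.79 for JUNB and 0.998 for IER3. JUN and JUND deviated in opposite directions in each post-MI library, so their small difference is not a shared pattern. The difference was largest for EGR1 and IER3 (1.46) and for JUNB and EGR1 (1.40). The libraries are shared by all genes, and 6 points cannot tell a close likeness from the few large steps between libraries.

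Outside the 10 genes, the genes nearest to JUNB by this measure were the transcription factor RUNX1 (0.08), the urokinase receptor PLAUR (0.12) and the serotonin receptor HTR2A (0.16). RUNX1 was at 4.13, 5.06 and 8.37 CPM in post-MI replicates 1 to 3 and at 20.4, 5.44 and 5.12 CPM in naive replicates 1 to 3. Like JUNB, it was far higher in naive replicate 1 than elsewhere. IER3 was nearest to the secreted precursor VGF (0.19) and the glycolytic genes PFKFB3 (0.20) and LDHA (0.20). LDHA was at 243, 363 and 511 CPM in post-MI replicates 1 to 3 and at 1884, 436 and 826 CPM in naive replicates 1 to 3.

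EGR1 was nearest to CAVIN4 (0.20), ARHGAP6 (0.23) and the lipid transporter ABCA3 (0.24). CAVIN4, a caveolar coat protein, was at 2.25, 1.57 and 2.89 CPM in post-MI replicates 1 to 3 and at 0.801, 4.23 and 3.81 CPM in naive replicates 1 to 3. ATF3 was nearest to the serine synthesis enzyme PSPH, the homeobox gene MEIS3 and GPSM3 (0.13 each). FOSL1 was nearest to HR (0.19), PDP2 (0.19) and VSIR (0.20), and FOSL2 to LIN54 (0.08), the replication factor MCM10 (0.08) and FAM136A (0.09). JUN lay nearest to SUGP2 (0.08), the proline synthesis enzyme ALDH18A1 (0.09) and TMEM263 (0.09). JUND lay nearest to GULP1 (0.04), DCTD (0.06) and LRRC41 (0.06), and FOS to STK17B, RICTOR and METAP1D (0.11 each).

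Other immediate early genes had both signs. Of 23 tested, the log2 fold change was above 0 for 11 and below 0 for 12, with a median of -0.01. This median ranged from -0.21 (post-MI replicate 3 left out, 9 positive and 14 negative) to 0.08 (post-MI replicate 2 left out), and its difference from the median of the 9 was not tested. edgeR called 0 of them, limma-voom called 0 and DESeq2 called 1. At an unadjusted p under 0.05 edgeR gave 3 higher and 3 lower, 26.1% of the list, where 4.61% of all genes were higher and 4.08% lower. RHOB, a small GTPase of endosomes and the cytoskeleton, was at 128, 151 and 107 CPM in post-MI replicates 1 to 3, against 58.1, 68.1 and 52.8 CPM in naive replicates 1 to 3. RHOB did not overlap between the groups and had a fitted log2 difference of 1.11 ± 0.18 (SE, adjusted p = 0.254 in edgeR). The 1 DESeq2 call was RHOB (log2 fold change 1.117, adjusted p = 6.56e-05), where DESeq2 called 1.51% of the genes it tested.

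GADD45B, a stress and growth arrest gene, averaged 45.0 ± 5.21 CPM with post-MI and 27.9 ± 8.10 CPM with naive plasma (SD, n = 3 per group, adjusted p = 0.534 in edgeR). EGR2, a zinc finger relative of EGR1, averaged 12.3 ± 1.35 CPM with post-MI and 17.6 ± 2.92 CPM with naive plasma (SD, n = 3 per group), which gave a fitted log2 difference of -0.51 ± 0.18 (SE, adjusted p = 0.561 in edgeR). The groups did not overlap for GADD45B or EGR2. The list had 3 genes higher and 2 lower without overlap, 21.7% of its tested members against 16.1% of all genes.

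Proteins that pair with or oppose AP-1 had both signs, with 5 positive and 8 negative log2 fold changes among 13 tested genes, a median of -0.20 and 0 calls in edgeR, DESeq2 or limma-voom (1 lower at an unadjusted p under 0.05 in edgeR, as for 4.08% of all genes). The median was -0.03 with naive replicate 1 left out and -0.08 with post-MI replicate 2 left out. MAFG, a small Maf protein that pairs with NRF2 and other zipper factors, was at 45.0, 62.0 and 85.6 CPM in post-MI replicates 1 to 3. In naive replicates 1 to 3 MAFG was at 136, 88.1 and 122 CPM, above every post-MI library. Its log2 fold change was -0.85 ± 0.27 (SE, adjusted p = 0.533 in edgeR). The related MAFK gave 0.60 ± 0.32 (SE, adjusted p = 0.588 in edgeR), with 0.31 when naive replicate 1 was left out and 0.91 when naive replicate 2 was. ATF1, a cAMP-responsive factor, gave -0.27 ± 0.16 (SE, adjusted p = 0.612 in edgeR). The groups did not overlap for MAFG and ATF1, both lower with post-MI plasma, and for MAFK, which was higher. These made up 23.1% of the tested genes of the list, against 16.1% of all genes tested. The stress factor DDIT3 was listed at 0 in every library.

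Inputs to immediate early transcription (serum response factor, its MRTF and ETS partners, and MAP kinases) had a median log2 fold change of 0.04 over 19 tested genes, 10 positive and 9 negative, with 0 calls in edgeR, DESeq2 or limma-voom (1 higher at an unadjusted p under 0.05 in edgeR, as for 4.61% of all genes). The median turned negative with 1 library left out, at -0.045 (6 positive and 13 negative) for post-MI replicate 3, -0.023 for naive replicate 1 and -0.012 for naive replicate 3. MRTFB, an actin-regulated coactivator of serum response factor, averaged 22.7 ± 3.70 CPM with post-MI and 16.2 ± 1.37 CPM with naive plasma (SD, n = 3 per group), and the groups did not overlap. Its log2 fold change was 0.48 ± 0.17 (SE, adjusted p = 0.558 in edgeR). RPS6KA3, which encodes the kinase RSK2, gave -0.62 ± 0.28, and MAP2K1, which encodes MEK1, gave -0.39 ± 0.24 (SE, adjusted p = 0.566 and 0.628 in edgeR). The groups did not overlap for RPS6KA3 either, which was lower with post-MI plasma. In this list 2 genes were higher and 3 lower without overlap, 26.3% of those tested against 16.1% of all genes tested. RPS6KA3 was at 128 CPM in naive replicate 1, and its log2 fold change was -0.23 without that library. MAP2K1 gave -0.16 without the same library and -0.24 when post-MI replicate 1 was left out.

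Genes known as AP-1 targets, such as proteases, cytokines and matrix genes, had 5 positive and 14 negative log2 fold changes among 19 tested, a median of -0.78 and 0 genes without overlap, against 16.1% of all genes. edgeR, DESeq2 and limma-voom called 0 of them, and edgeR gave 2, both lower, at an unadjusted p under 0.05, which is 10.5% of the list and compares with 4.08% of all genes in that direction. Naive replicate 1 was the highest library for 13 of the 19, against 28.8% of all genes tested. HMOX1, which encodes heme oxygenase, was at 13.1, 21.0 and 29.0 CPM in post-MI replicates 1 to 3 and at 458, 41.3 and 20.2 CPM in naive replicates 1 to 3. VEGFA, the endothelial growth factor, was at 118, 81.2 and 72.1 CPM in post-MI replicates 1 to 3, against 335, 166 and 93.5 CPM in naive replicates 1 to 3. TNC, the matrix glycoprotein tenascin C, was at 57.3, 55.1 and 96.8 CPM in post-MI replicates 1 to 3 and at 390, 86.3 and 72.3 CPM in naive replicates 1 to 3.

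Each of these target genes was highest in naive replicate 1. The log2 fold changes were -3.04 ± 1.13 for HMOX1, -1.13 ± 0.45 for VEGFA and -1.39 ± 0.65 for TNC (SE, adjusted p = 0.561, 0.566 and 0.57 in edgeR). Without naive replicate 1 they were -0.53, -0.51 and -0.18, and the list had 10 positive and 9 negative values with a median of 0.10. With naive replicate 2 left out the median was -1.23, and in limma-voom it was -0.51.

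Corepressors and targets of EGR1 gave a median of 0.10 over 10 tested genes, 5 positive and 5 negative, with 0 calls in edgeR, DESeq2 or limma-voom and 0 at an unadjusted p under 0.05 in edgeR. The median was 0.03 with post-MI replicate 3 left out, 0.19 with post-MI replicate 2 left out and 0.23 in DESeq2. PDGFB, a platelet-derived growth factor chain made by endothelium, averaged 94.1 ± 16.4 CPM with post-MI and 57.8 ± 23.5 CPM with naive plasma (SD, n = 3 per group, adjusted p = 0.566 in edgeR). PDGFB had its lowest level, 33.2 CPM, in naive replicate 1. That library was the lowest for 4 of the 10 tested genes of this list and for 29.2% of all genes tested. The log2 fold change of PDGFB was 0.70, and 0.44 without naive replicate 1. The matrix protein gene THBS1 was at 0.58 ± 0.41, and NAB1, a corepressor that binds EGR1, at 0.22 ± 0.17 on the log2 fold scale (SE, adjusted p = 0.66 and 0.676 in edgeR). THBS1 ranged from 0.36 (post-MI replicate 1 or naive replicate 1 left out) to 1.16 (naive replicate 2 left out), with 0.37 when naive replicate 3 was left out. NAB1 gave 0.11 when naive replicate 1 was left out and 0.13 when post-MI replicate 3 was.

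**Figure D5:**
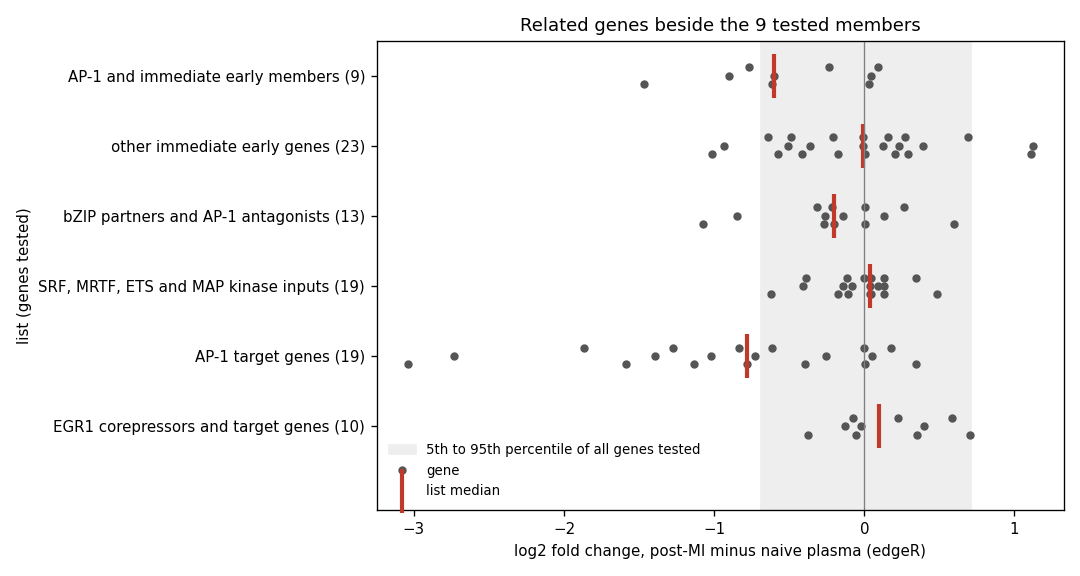
Log2 fold changes, post-MI minus naive plasma (horizontal axis), of the 9 tested genes and of 5 lists of related genes (points), with list medians (red bars) and the 5th to 95th percentile of all genes tested (grey, -0.69 to 0.71). The medians of the 9 genes (-0.60) and of AP-1 target genes (-0.78) lie left of 0, and the target median is 0.10 without naive replicate 1.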

How the data were processed

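Messenger RNA of 6 libraries was read as paired ends after a stranded kit, per the labels. Build Oar_v3.1, the aligner STAR 2.5.2b and the counter featureCounts 2.0.0 are named in the submitters' processing notes, beside quality tools, SAMtools 1.9 and DESeq2 1.26.0. The annotation and strand setting were not given in the sources used here, so reads of overlapping or antisense genes could be shared. The deposited table holds raw counts per gene symbol, which were used as they stand. The scaled per-library files were not used.

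In R 4.3.3, genes were kept by filterByExpr (minimum count 10, minimum total 15), scaled by TMM and tested by the quasi-likelihood test of edgeR 4.0.16, with Benjamini-Hochberg adjustment over all 14326 genes at 0.05. SE was taken as the size of the log2 fold change divided by the root of its F statistic. Principal components and profiles used log2 CPM with a prior count of 2. The 3 nearest profiles were sought among genes averaging log2 CPM 1 or more, leaving out provisional locus names. A floor of 3 counts equals 0.141 to 0.205 CPM. The tests were checked on simulated data with a spread (dispersion) of 0.05 for every gene and no outlying library. That check does not cover the wider spread of genes such as IER3, EGR1 and JUNB. Members and lists were chosen with earlier results of these data known. From each of the 5 related lists, the 3 genes with the smallest edgeR p are named. Alternatives were DESeq2 1.42.0, limma-voom (limma 3.58.1), other scalings and filters, a replicate block and each library left out. Replicate libraries differed beyond counting noise.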

Additional observations from a re-analysis of the deposited data

How the results depend on the processing

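The count of 0 genes called by edgeR held under limma-voom, both other scalings, both other filters, the replicate block and each library left out (0 to 0), while the DESeq2 Wald test called 221, none of them among the 10 genes. The count of these 10 genes called was 0 under every alternative run, and 0 to 0 with single libraries left out. DESeq2 also called RHOB, which edgeR did not. Log2 fold changes turned sign when 1 library was left out for 4 of the tested members. FOS gave -0.080, -0.068, -0.065 and -0.017 without naive replicate 1, naive replicate 2, post-MI replicate 3 and post-MI replicate 1, and its highest value was 0.33 (naive replicate 3 left out). For FOSL2 the range was -0.17 (naive replicate 3 left out) to 0.46 (naive replicate 1 left out), with -0.071 when post-MI replicate 1 was left out. For JUNB it was -1.24 (naive replicate 3 left out) to 0.15 (naive replicate 1 left out). JUND gave -0.067, -0.063 and -0.0028 without naive replicate 1, post-MI replicate 1 and post-MI replicate 2, and at most 0.16. The median of the tested members, -0.60 in edgeR, was -0.35 in limma-voom and -0.39 with the replicate block, and -0.30 with either naive replicate 1 or post-MI replicate 2 left out, where FOSB passed the filter and the median covers 10 genes. The causes were not tested. Same-numbered libraries deviated from their group means with correlations of 0.15, -0.11 and 0.09, and differently numbered ones with -0.31 to 0.24. With so few libraries these values cannot tell whether the numbers mark shared cultures or batches. The labels name no pairs, so the main fit used none, and with the replicate block edgeR called 0 genes. Depth limits FOS and FOSB most, with at most 80 and 19 counts in a library.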
